A study of Homo sapiens with 8 samples.

Results

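CDKN1A, MDM2, BBC3, TP53INP1, RRM2B, FDXR, ZMAT3, BTG2, and GDF15 are direct transcriptional targets of the tumor suppressor p53, and they were taken by symbol from the gene body and TSS tables of a PRO-seq experiment. These 9 genes are 9 of the 23193 genes in each table, and all 9 passed the filter on low counts in both. PRO-seq maps the RNA that engaged polymerases extend in isolated nuclei, so its reads report ongoing transcription and not stored mRNA. The experiment used HCT116, an established human colorectal carcinoma line, to compare transcription with and without HIF1A, the oxygen-regulated subunit of hypoxia-inducible factor 1, during acute hypoxia.

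There were 4 groups of 2 independent biological replicates: WT cells in normoxia, WT cells after 90 min at 1% O2, HIF1A-/- cells in normoxia, and HIF1A-/- cells after the same exposure. Every culture received the vehicle DMSO. The HIF1A-/- cells carry a disruption of internal HIF1A exons made by homologous recombination. They are represented by 1 line, so that genotype and line cannot be told apart. In such bulk libraries fewer cells of a kind and less RNA per cell cannot be told apart either.

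p53 is kept scarce in unstressed cells by MDM2, an E3 ubiquitin ligase whose gene p53 itself activates, and stress signals that break this feedback let p53 bind its response elements. The genes it switches on halt the cell cycle (CDKN1A, BTG2), start apoptosis (BBC3, TP53INP1), supply nucleotides for DNA repair (RRM2B), and adjust metabolism, RNA stability, and secreted signals (FDXR, ZMAT3, GDF15). Low oxygen is one of the stresses long studied for its effect on p53, with outcomes that depend on its severity and duration.

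The promoter letters of 3 members are shown because they hold matches to the p53 element. For MDM2 and GDF15 they also place the match relative to the counted regions. Each counted TSS region ran from 50 bases before to 500 bases after the start, a length of 551 bases, and each gene body began 1001 bases after it. RefSeq promoter windows of 300 bases (GRCh38.p14) were found for 7 of the 9 members. They were searched for the p53 response element, read as a pair of adjoining half-sites with both core bases kept and at most 3 mismatches elsewhere, on either strand. The search was chosen with the sequences in view. A match was found for 3 of these 7 members, which have 12 windows together. Of all 35116 windows, which cover 27305 genes, 1.12% held a match. Members were counted by gene and the background by single window, so these shares cannot be compared. The share of all genes with a match is not given here. The FDXR and GDF15 matches had 3 mismatches, the most allowed, and the MDM2 match had 2. Letters outside the windows were not searched, so members without a match may hold an element elsewhere. Capitals mark the match in the sequences that follow, each written 5′ to 3′ on the gene's strand. The MDM2 windows and the GDF15 window occur once in GRCh37, the build of the counts, at chr12:69201702-69202001, chr12:69202547-69202846, and chr19:18496718-18497017 on the plus strand. The FDXR window is given at chr17:74872945-74873244 of GRCh38.p14, minus strand. It does not occur exactly in GRCh37, so its match was not placed relative to the counted regions.
MDM2 first start: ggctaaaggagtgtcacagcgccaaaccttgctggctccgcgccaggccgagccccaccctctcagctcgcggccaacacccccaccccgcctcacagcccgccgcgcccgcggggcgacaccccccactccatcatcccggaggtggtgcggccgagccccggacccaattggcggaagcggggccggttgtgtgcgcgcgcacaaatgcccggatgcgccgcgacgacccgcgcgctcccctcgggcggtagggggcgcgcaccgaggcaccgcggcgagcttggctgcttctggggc
MDM2 second start: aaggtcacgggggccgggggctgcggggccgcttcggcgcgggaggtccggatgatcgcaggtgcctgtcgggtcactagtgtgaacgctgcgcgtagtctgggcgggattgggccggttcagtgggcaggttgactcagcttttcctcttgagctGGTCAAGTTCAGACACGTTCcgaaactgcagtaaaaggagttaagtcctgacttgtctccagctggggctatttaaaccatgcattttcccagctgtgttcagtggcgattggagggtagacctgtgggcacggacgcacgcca
GDF15: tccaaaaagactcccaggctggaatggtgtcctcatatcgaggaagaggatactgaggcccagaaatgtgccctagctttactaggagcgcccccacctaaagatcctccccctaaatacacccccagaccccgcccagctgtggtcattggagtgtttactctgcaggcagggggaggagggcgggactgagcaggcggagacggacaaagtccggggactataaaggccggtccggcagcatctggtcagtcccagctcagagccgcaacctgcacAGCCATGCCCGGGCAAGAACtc
FDXR: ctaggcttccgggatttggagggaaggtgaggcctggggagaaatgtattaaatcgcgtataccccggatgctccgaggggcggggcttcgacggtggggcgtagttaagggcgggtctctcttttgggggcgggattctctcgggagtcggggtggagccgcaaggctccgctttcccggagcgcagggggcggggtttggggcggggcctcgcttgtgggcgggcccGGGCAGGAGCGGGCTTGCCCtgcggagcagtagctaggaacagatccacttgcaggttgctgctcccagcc

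The second MDM2 start, the one that lies behind the p53-responsive promoter of this gene, was 846 bases downstream of the start that was counted, and its p53 match began 752 bases downstream. Both positions fall in the gap between the counted TSS region and the counted gene body, so the MDM2 TSS count covers the first promoter alone. In GDF15 the match began 227 bases after the counted start, inside the TSS region. The 5 letters ACGTG or GCGTG on either strand are the core that HIF proteins recognize. They occurred in windows of 4 of the 7 members and in 48.4% of all windows, again genes beside single windows. In MDM2 1 of the 2 such runs in the second window overlapped the p53 match. These matches describe the letters and show no binding.

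The depth of the gene body table ran from 18125234 to 23622392 reads per library and that of the TSS table from 2783581 to 5966348, with the lowest TSS totals in both replicate 1 libraries of HIF1A-/- cells. Single members had 235 to 5219 gene body reads and 20 to 2602 TSS reads in a library. The HIF1A gene body itself (plus strand of chromosome 14, from 62163119 to 62214977) read 138 and 150.1 CPM in the normoxic and 129.5 and 161 CPM in the hypoxic WT libraries, and 165 and 137 CPM in the normoxic and 175 and 158 CPM in the hypoxic HIF1A-/- libraries. These values do not test the genotype, since a disruption of internal exons leaves the start site in place. Of 10 colorectal epithelial markers, 9 passed the filter, with a summed level of 947 to 1440 CPM, and CDX1 did not. Of the fibroblast, leukocyte, and endothelial markers, 3 of 6, 2 of 6, and 4 of 5 passed, with summed levels of at most 58.2, 14.1, and 38.2 CPM.

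The members differed widely in how heavily they were transcribed. Per length, on the RPKM scale of gene body reads, the order in WT normoxia was GDF15 (16.8 ± 6.51, SD, n = 2), CDKN1A (12.7 ± 0.483), BTG2 (6.40 ± 0.751), MDM2 (6.01 ± 0.0479), FDXR (5.93 ± 0.939), BBC3 (4.49 ± 0.510), RRM2B (1.40 ± 0.0187), TP53INP1 (0.741 ± 0.303), and ZMAT3 (0.643 ± 0.0262). GDF15, a secreted stress cytokine of the TGF-beta family, stood at the 98.2th percentile of all tested gene bodies, and ZMAT3, an RNA-binding zinc finger protein, at the 33.4th. The replicate values of GDF15 and CDKN1A overlapped, as did those of BTG2 with MDM2, of MDM2 with FDXR, and of TP53INP1 with ZMAT3, so these neighbors did not separate. GDF15, CDKN1A, and BTG2 held the top 3 places, and RRM2B, TP53INP1, and ZMAT3 the bottom 3, in all 4 groups.

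Hypoxia for 90 min was compared with normoxia to ask whether the p53 program responds to acute oxygen loss. In WT cells none of the 9 members passed an FDR of 10% in the gene body by the fit without the replicate number. That fit called 0.431% of all 16686 genes tested, and the fit with the replicate number called 5.51%. Of the members, 3 lay above and 6 below 0, with a median log2 fold change of -0.08 against -0.02 for all genes. GDF15 was the member with the largest value, 1.72-fold, and it passed the test only once the replicate number entered the fit. Without that number 0 of the 9 had an unadjusted p under 0.05 with edgeR, and DESeq2 also called 0.

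**Figure D1:**
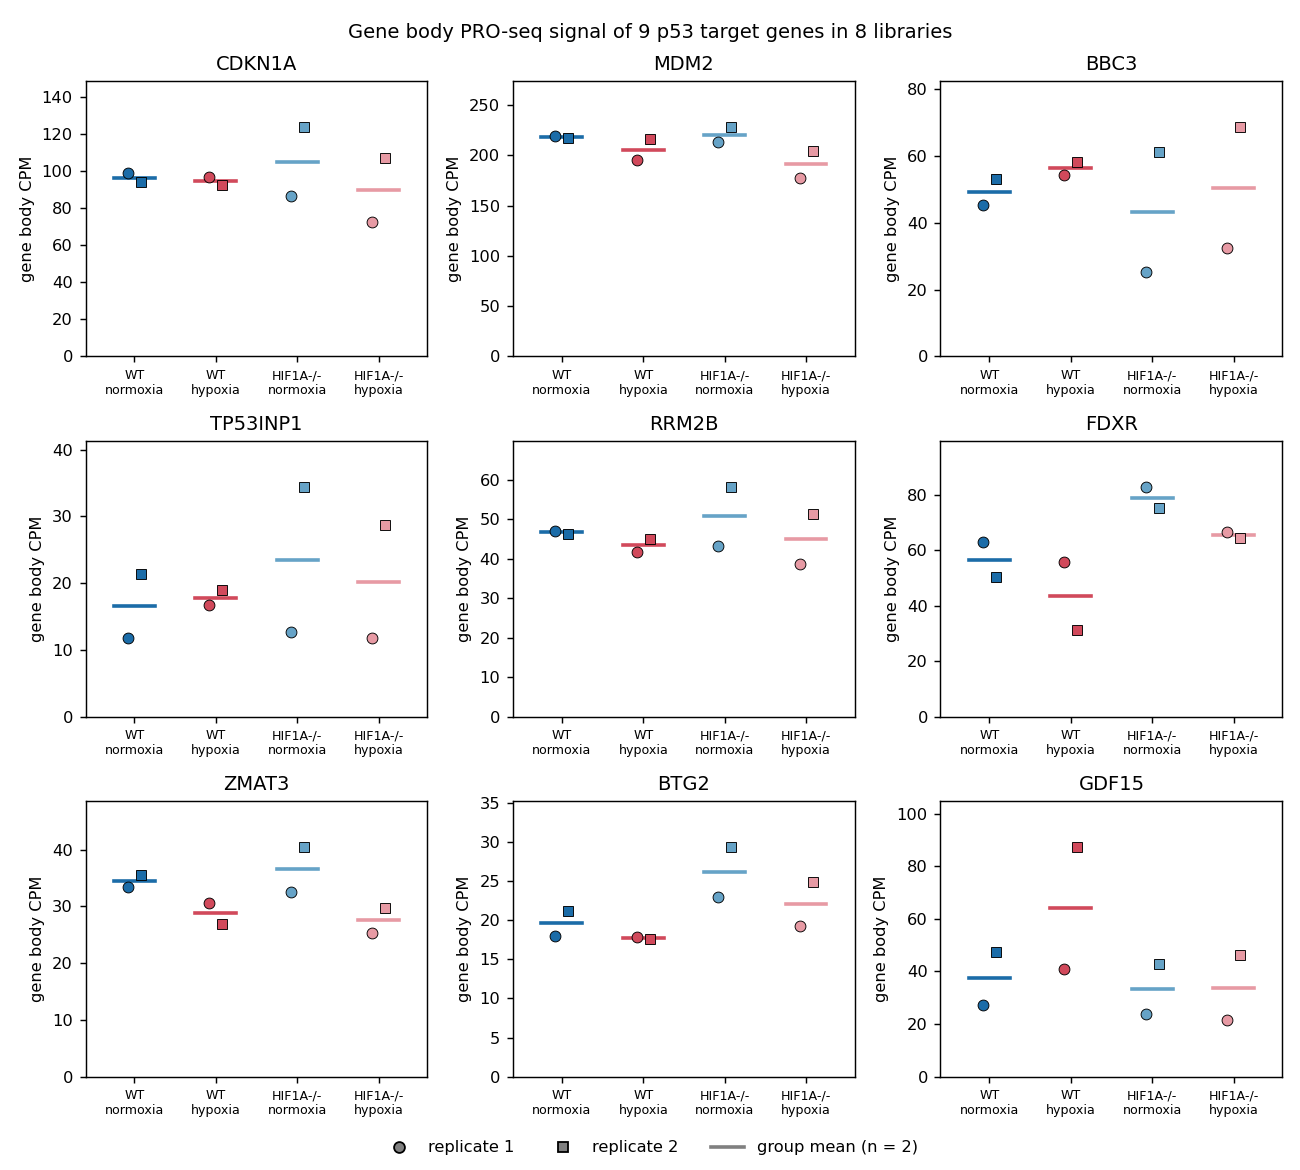
Gene body signal of the 9 members, as TMM-scaled CPM on a linear axis from 0, in each of the 8 libraries. Circles are replicate 1, squares replicate 2, and bars the mean of 2. GDF15 is highest in the WT hypoxia library of replicate 2 (87.2 CPM), and all 4 HIF1A-/- values of FDXR lie above all 4 WT values.

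The cell cycle members kept close to their normoxic levels in WT cells. CDKN1A, which encodes the cyclin-dependent kinase inhibitor p21 (plus strand of chromosome 6, gene body from 36647487 to 36655116), had 99.3 and 94.1 CPM in WT normoxia and 96.8 and 92.7 CPM in WT hypoxia. BTG2, an antiproliferative cofactor of mRNA deadenylation (chromosome 1, 203275664 to 203278730, plus strand), had 18.0 and 21.2 CPM in normoxia and 17.8 and 17.6 CPM in hypoxia. The values of the 2 conditions overlapped for CDKN1A, while both hypoxic BTG2 values lay just under the lower normoxic one. The log2 fold changes were -0.03 for CDKN1A (95% interval -0.54 to 0.48, adjusted p = 0.98) and -0.15 for BTG2 (-0.62 to 0.32, adjusted p = 0.903).

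MDM2, the negative regulator of p53 (chromosome 12, gene body 69202952 to 69239324, plus strand), was the most precisely measured member. Its gene body read 219.7 and 217 CPM in WT normoxia and 195 and 216 CPM in WT hypoxia. Both hypoxic values were below both normoxic ones by a small margin, and the fitted log2 difference was -0.08 (standard error 0.125, 95% interval -0.37 to 0.20, adjusted p = 0.905).

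The apoptotic members also showed no called change in WT cells. BBC3, which encodes the BH3-only protein PUMA (chromosome 19, 47724078 to 47735022, minus strand), had 45.2 and 53.1 CPM in normoxia and 54.3 and 58.2 CPM in hypoxia. TP53INP1, a stress-induced nuclear and autophagy protein encoded on chromosome 8, had 11.8 and 21.4 CPM in normoxia and 16.7 and 18.9 CPM in hypoxia. Both BBC3 values were higher in hypoxia, whereas the hypoxic TP53INP1 values lay between the normoxic ones. The log2 fold changes were 0.19 (standard error 0.434, adjusted p = 0.932) and 0.10 (standard error 0.548, adjusted p = 0.972), and the TP53INP1 interval, -1.16 to 1.37, was the widest of the 9.

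Of the remaining members, RRM2B encodes the p53-inducible small subunit of ribonucleotide reductase, FDXR the mitochondrial ferredoxin reductase, and ZMAT3 the RNA-binding protein named above. RRM2B, also on chromosome 8, had 47.1 and 46.2 CPM in WT normoxia and 41.7 and 45.1 CPM in WT hypoxia. FDXR (chromosome 17, 72858618 to 72868155, minus strand) had 62.9 and 50.2 CPM against 55.7 and 31.3 CPM, and ZMAT3 (chromosome 3, 178735010 to 178788655, minus strand) had 33.5 and 35.5 CPM against 30.6 and 27.0 CPM. The 2 conditions overlapped for FDXR, and for RRM2B and ZMAT3 both hypoxic values were the lower ones. The log2 fold changes were -0.10 (adjusted p = 0.922), -0.38 (adjusted p = 0.897), and -0.26 (adjusted p = 0.897).

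The gene body of GDF15 (plus strand of chromosome 19, from 18497770 to 18499987) had 27.1 and 47.5 CPM in WT normoxia and 41.0 and 87.2 CPM in WT hypoxia. The conditions overlapped, but within each replicate number hypoxia was higher, by a log2 difference of 0.60 in replicate 1 and 0.88 in replicate 2. The unpaired fit gave 0.78 on the log2 scale (standard error 0.501, adjusted p = 0.897). Libraries with the same replicate number deviated together, and with that number as a block the estimate was 0.74 (standard error 0.113, adjusted p = 0.0169), in a fit that called 5.51% of all genes. Leaving out 1 WT library moved the unpaired 0.78 to 0.14 (without hypoxia replicate 2), 0.43 (without normoxia replicate 1), 1.24 (without hypoxia replicate 1), or 1.25 (without normoxia replicate 2). GDF15 thus rose in the paired fit, in 2 of 2 pairs, and the other 8 members passed neither fit.

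In HIF1A-/- cells no member and no gene at all passed, with 0% of gene bodies called. The members' median log2 fold change was -0.22, against 0.00 for all genes, and 7 of the 9 lay below 0. One member, ZMAT3, had an unadjusted p under 0.05, and DESeq2 called 0 members. ZMAT3 read 32.6 and 40.4 CPM in HIF1A-/- normoxia and 25.3 and 29.7 CPM in HIF1A-/- hypoxia, with a log2 fold change of -0.41 (95% interval -0.80 to -0.01, adjusted p = 1). Both hypoxic values were below both normoxic ones. GDF15 had 23.6 and 42.7 CPM in normoxia and 21.4 and 46.2 CPM in hypoxia, which differed by 0.03 on the log2 scale (standard error 0.502, adjusted p = 1) with opposite signs in the 2 replicates (-0.14 and 0.11). The log2 fold changes of the others were -0.22 for CDKN1A, -0.21 for MDM2, 0.22 for BBC3, -0.22 for TP53INP1, -0.17 for RRM2B, -0.27 for FDXR, and -0.25 for BTG2.

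The difference between the genotypes in the hypoxia response was tested directly. It passed for 0 of the 9 members, against 0.0539% of all gene bodies, with no unadjusted p under 0.05 among the members and 0 calls by DESeq2. The GDF15 response was larger in WT by 0.76 on the log2 scale (95% interval -0.88 to 2.39, adjusted p = 1), and this difference did not pass with the replicate block either (0.75, adjusted p = 0.248), although DESeq2 with the same block called it (0.76, adjusted p = 0.0633). The 2 hypoxia comparisons therefore cannot be said to differ for any member by the edgeR test.

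**Figure D2:**
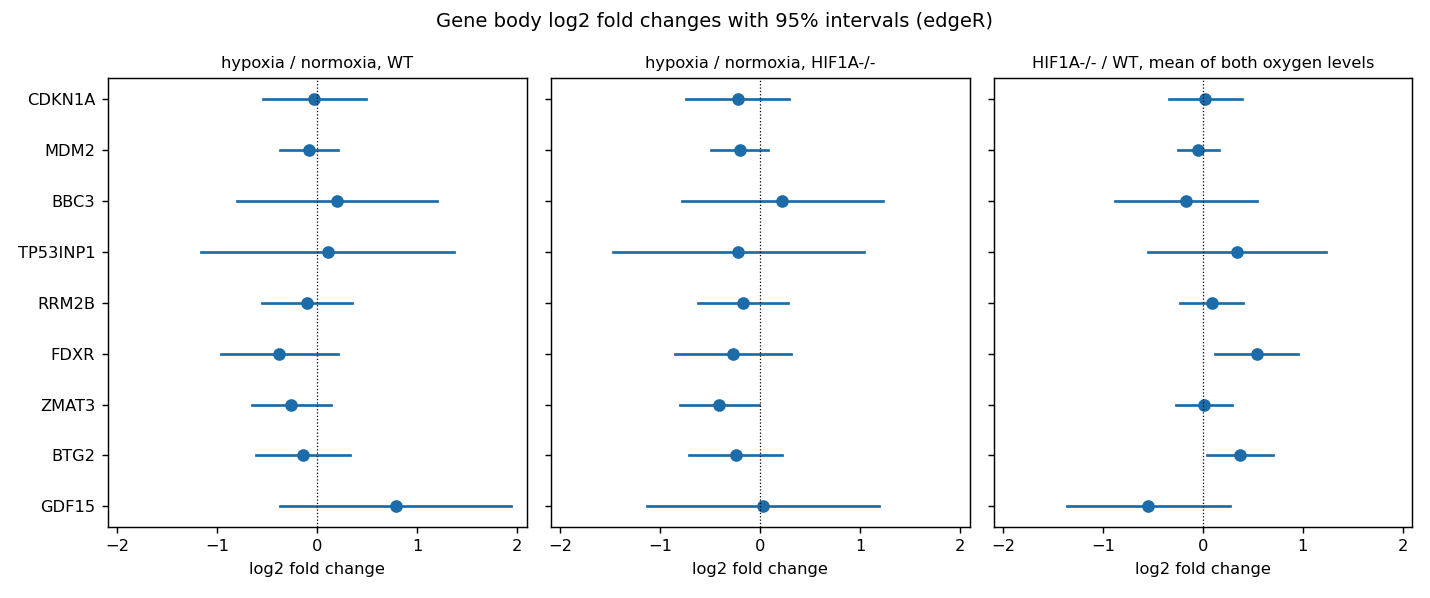
Log2 fold changes in the gene body of each member (points) with 95% intervals (lines), for hypoxia over normoxia in WT and in HIF1A-/- cells and for HIF1A-/- over WT averaged over both oxygen levels. These fits leave out the replicate number. No member passed an FDR of 10% in them, and FDXR, at 0.54 in the genotype comparison, lies farthest above 0 relative to its interval.

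The genotypes were then compared at each oxygen level and averaged over both. In the gene body, HIF1A-/- against WT called 0 of 9 members in normoxia (1.78% of all genes), 0 in hypoxia (4.26%), and 0 in the average (10.0%). The members with an unadjusted p under 0.05 numbered 0, 1, and 2, and DESeq2 called 0, 0, and 1, the last being FDXR. The share of all genes with an unadjusted p under 0.05 is not given, here or below, so such counts show no excess. With the replicate block 2 members were called in hypoxia (28.2% of all genes), FDXR higher and GDF15 lower. In the average 3 were called (36.0% of all genes), FDXR and BTG2 higher and GDF15 lower, which is a share of the 9 close to that of all genes.

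FDXR had the smallest adjusted p of the members in the gene body average without the block, and GDF15 the smallest with it. The FDXR gene body read 82.8 and 75.2 CPM in HIF1A-/- normoxia and 66.7 and 64.4 CPM in HIF1A-/- hypoxia. Every HIF1A-/- library thus exceeded every WT library, whose values are given above. The share of all gene bodies that separate in this way is not given here. The average difference was 1.45-fold (log2 0.54, standard error 0.180, adjusted p = 0.137; with the block 0.56, adjusted p = 0.011). With DESeq2 it passed without the block (0.55, adjusted p = 0.0402). The value rested in part on WT hypoxia: it was 0.79 without replicate 1 of that group and 0.36 without replicate 2. Leaving out any other library gave a log2 difference between these values.

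BTG2 had 23.0 and 29.4 CPM in HIF1A-/- normoxia and 19.3 and 24.9 CPM in HIF1A-/- hypoxia, higher than the WT library of the same number and oxygen level in 4 of 4 pairs although the genotypes overlapped. The average difference was 1.29-fold (log2 0.37, standard error 0.144, adjusted p = 0.191; with the block 0.36, adjusted p = 0.0279). GDF15 was lower in HIF1A-/- cells in 4 of 4 pairs, by log2 differences of -0.20 and -0.15 in normoxia and -0.94 and -0.92 in hypoxia. In hypoxia the difference was 1.90-fold (log2 -0.92, standard error 0.502, adjusted p = 0.425; with the block -0.93, adjusted p = 0.0015), and in the average 1.46-fold (log2 -0.55, adjusted p = 0.429; with the block -0.55, adjusted p = 0.00202). Without the block the hypoxia value ran from -0.28 when WT hypoxia replicate 2 was left out, through -0.47 without HIF1A-/- hypoxia replicate 1, to -1.61 without HIF1A-/- hypoxia replicate 2. The average ran from -0.22 without WT hypoxia replicate 2 to -0.88 without HIF1A-/- hypoxia replicate 2. The share of all genes with the same direction in 4 of 4 pairs is not given, here or for TSS regions below.

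The other 6 members gave average gene body log2 differences of 0.03 for CDKN1A, -0.05 for MDM2, -0.17 for BBC3, 0.34 for TP53INP1, 0.09 for RRM2B, and 0.01 for ZMAT3, and neither edgeR fit called one. CDKN1A read 86.5 and 124 CPM in HIF1A-/- normoxia and 72.8 and 107 CPM in HIF1A-/- hypoxia. Its 2 HIF1A-/- replicates thus fell on either side of the WT values. BBC3 did the same, with 25.4 and 61.1 CPM in HIF1A-/- normoxia and 32.3 and 68.7 CPM in HIF1A-/- hypoxia.

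For several members the replicates lay farther apart than the oxygen levels or the genotypes. GDF15 was higher in replicate 2 in all 4 groups, by 1.75 to 2.16-fold, and 1.54% of all genes had a smallest ratio at least as large. TP53INP1 (1.13 to 2.72-fold) and BBC3 (1.07 to 2.40-fold) were also higher in replicate 2 in every group, with the largest ratios in HIF1A-/- cells. FDXR ran the other way, lower in replicate 2 in all 4 groups, at 0.563 to 0.965 of the replicate 1 level. Over all genes, 26.5% were higher in replicate 2 in every group and 25.8% lower. The labels give no day or batch for the numbers, and the part of culture, day, or library in these differences was not tested.

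**Figure D3:**
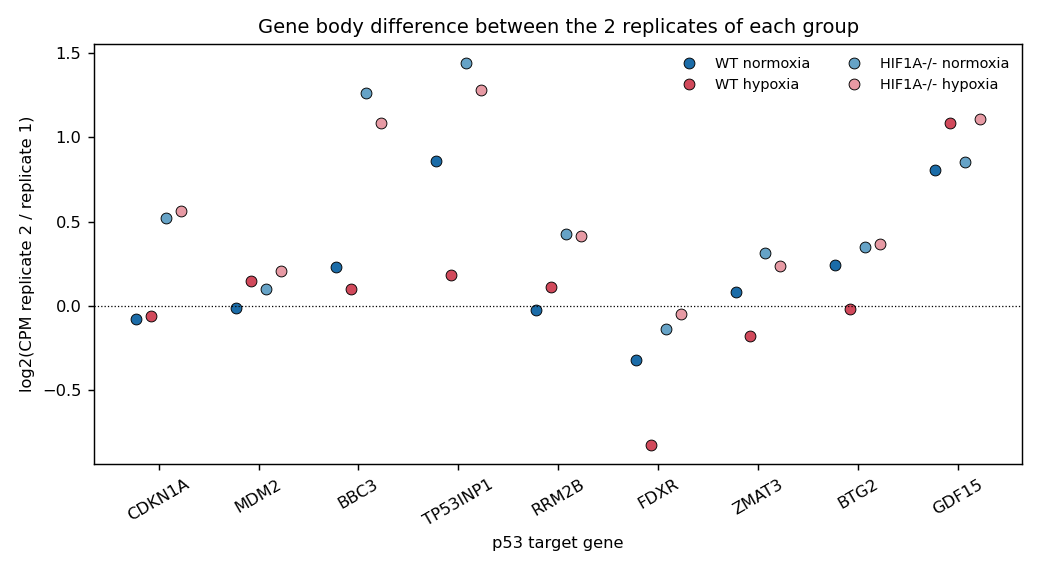
Log2 ratio of gene body CPM in replicate 2 over replicate 1 for each member (1 point per group, colored by group). All 4 GDF15 points lie between 0.81 and 1.11, all 4 FDXR points lie below 0, and the HIF1A-/- points of TP53INP1 and BBC3 lie above their WT points.

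Polymerase near the start sites was examined in the TSS table, with 15212 regions tested. Hypoxia called 0 of 9 members in WT cells (0.0460% of all TSS regions), 0 in HIF1A-/- cells (0%), and 0 for the difference between genotypes (0.00657%). Of the members 0 had an unadjusted p under 0.05 in these 3 comparisons, and DESeq2 called 0. The WT log2 fold changes ran from -0.24 for BBC3 to 0.19 for TP53INP1, and the HIF1A-/- ones from -0.27 for FDXR to 0.08 for ZMAT3. GDF15, whose gene body value was the largest in WT cells, had a TSS log2 fold change of 0.18 there (95% interval -0.47 to 0.84, adjusted p = 0.935).

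Between the genotypes, MDM2 was the only member called at its TSS by the fit without a block. HIF1A-/- against WT called 0 of 9 in normoxia (0.657% of all TSS regions), 0 in hypoxia (1.10%), and 1 in the average (6.39%). In normoxia and in hypoxia 1 member each had an unadjusted p under 0.05, and DESeq2 called 0, 0, and 1. The counted MDM2 TSS region covers the first start alone and not the one behind the p53-responsive promoter. It read 121 and 135 CPM in the normoxic and 114 and 139.6 CPM in the hypoxic WT libraries, and 103 and 90.1 CPM in the normoxic and 93.8 and 96.1 CPM in the hypoxic HIF1A-/- libraries. All 4 HIF1A-/- libraries were below all 4 WT libraries. The share of all TSS regions that separate in this way is not given here. The average difference was 1.33-fold (log2 -0.41, standard error 0.117, adjusted p = 0.0815; with the block -0.41, adjusted p = 0.00702), while the MDM2 gene body differed by -0.05. The TSS call was lost on leaving out any single WT library (adjusted p = 0.111 to 0.263) or either HIF1A-/- hypoxia library (adjusted p = 0.135 and 0.278), and without both HIF1A-/- replicate 1 libraries (log2 -0.45, adjusted p = 0.266).

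The TSS table is scaled to its own total, and the TSS total relative to the gene body total was lower in the HIF1A-/- library than in its WT counterpart in 4 of 4 pairs. With the gene body scaling factors applied to the TSS counts, the median of all TSS regions moved to -0.45 in the average genotype comparison, and the calls went from 537 higher and 435 lower to 154 higher and 4059 lower. MDM2 then read -0.86, which is -0.41 relative to that median. On this scale CDKN1A, BTG2, FDXR, and TP53INP1, which lay above 0 with the TSS scaling, read -0.21, -0.17, -0.42, and -0.35, and BBC3 (adjusted p = 0.0493) and GDF15 (-0.83, adjusted p = 0.0521) were called lower beside MDM2.

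With the replicate block the TSS regions of 2 members were called in HIF1A-/- against WT in hypoxia (14.4% of all regions), MDM2 (-0.42, adjusted p = 0.0703) and GDF15 (-0.59, adjusted p = 0.00776), both lower. In the average 4 were called (22.3%): MDM2, GDF15 (-0.49, adjusted p = 0.00103), and BBC3 (-0.63, adjusted p = 0.0562) lower, and BTG2 (0.23, adjusted p = 0.0871) higher. The GDF15 TSS region of WT cells read 264 and 378 CPM in normoxia and 303 and 425 CPM in hypoxia, and that of HIF1A-/- cells 163 and 343 CPM in normoxia and 199 and 286 CPM in hypoxia. The genotypes overlapped, and HIF1A-/- was the lower in 4 of 4 pairs. The BBC3 TSS region held few reads, 12.4 to 16.2 CPM in WT and 6.96 to 12.3 CPM in HIF1A-/- libraries.

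**Figure D4:**
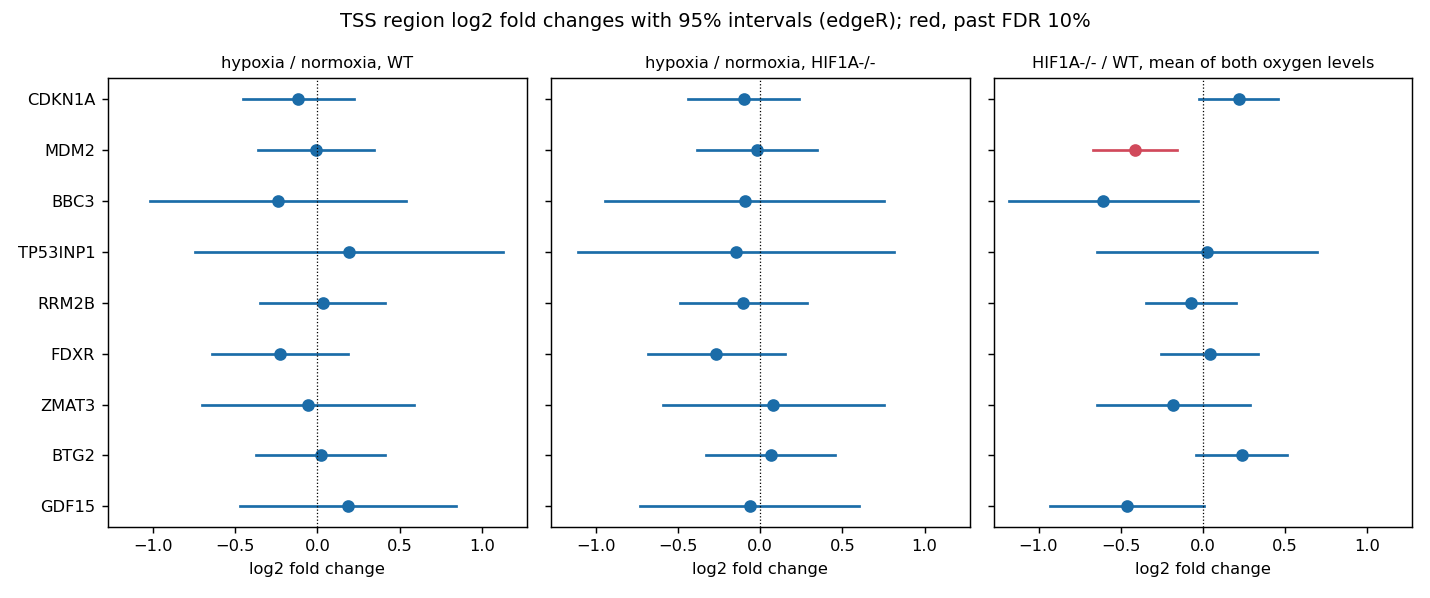
Log2 fold changes in the TSS region of each member (points) with 95% intervals (lines) for the same 3 comparisons as in the gene body plot. These fits leave out the replicate number. Red marks the single value past an FDR of 10% in them, MDM2 in HIF1A-/- over WT (-0.41).

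The pausing index, the ratio of TSS to gene body density with each table scaled to its own total, describes how strongly polymerase is held near the start. RRM2B had the highest of the members, with a median of 271.8 over the 8 libraries (range 256 to 316, 93.9th percentile of all genes), and BBC3 the lowest, with a median of 4.75 (3.30 to 7.12, 7.48th percentile). BTG2 (103) and CDKN1A (73.4) were above the library medians of all genes, which ran from 44.1 to 47.6. ZMAT3 (49.1) and FDXR (48.2) lay near them, and MDM2 (35.6), GDF15 (30.9), and TP53INP1 (28.6) lower. Hypoxia called 0 of 9 members in WT (0.193% of 14494 genes) and 0 in HIF1A-/- cells (0%), with 1 and 0 members at an unadjusted p under 0.05. That member was GDF15, which had 39.2 and 32.0 in WT normoxia and 29.8 and 19.6 in WT hypoxia (log2 difference -0.59, standard error 0.260, adjusted p = 0.857).

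For HIF1A-/- against WT the pausing index called 0 of 9 members (2.61% of all genes), and 2 had an unadjusted p under 0.05. With the block it called 2 (14.2%). FDXR had 55.3, 52.8, 53.9, and 71.8 in the WT libraries and 43.6, 37.2, 39.2, and 42.1 in the HIF1A-/- libraries. No value overlapped, and the log2 difference was -0.52 (standard error 0.144, adjusted p = 0.102; with the block -0.52, adjusted p = 0.0186). MDM2 had 36.3 to 42.6 in WT and 26.1 to 34.8 in HIF1A-/- libraries, also without overlap (log2 difference -0.36, adjusted p = 0.232; with the block -0.37, adjusted p = 0.0789). The share of all genes whose index separates in this way is not given here. The 2 lower indices had different parts: the log2 difference of FDXR was 0.54 in the gene body and 0.04 at the TSS, and that of MDM2 was -0.05 in the gene body and -0.41 at the TSS. For MDM2 the index sets the TSS count of the first start alone against a gene body downstream of both starts. The counted gene body of ZMAT3 holds a second RefSeq start, 2526 bases downstream of the counted one. FDXR also has a second RefSeq start, which was not placed on the build of the counts. The part of these starts in the indices was not tested.

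**Figure D5:**
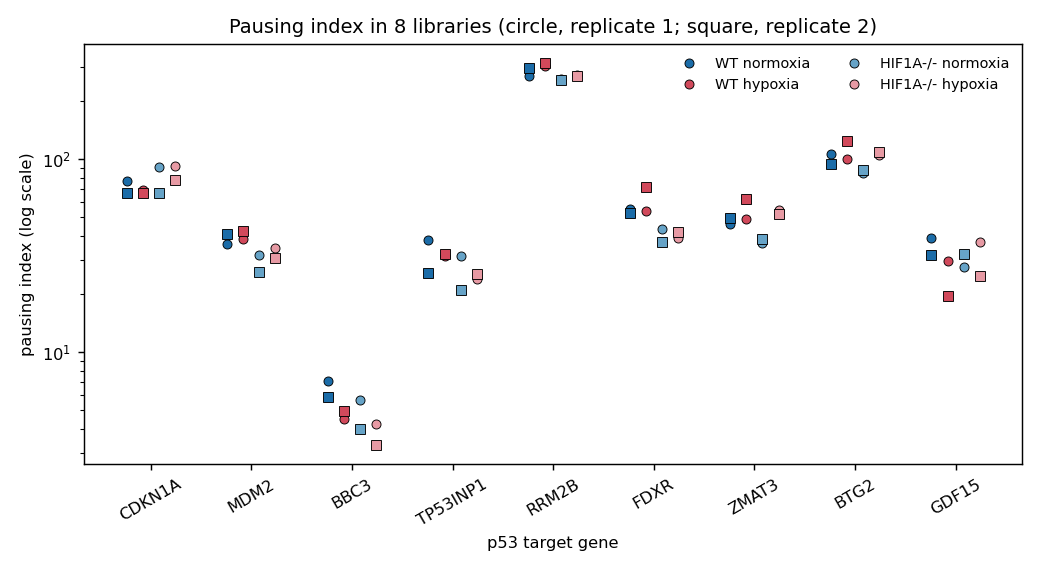
Pausing index of each member in the 8 libraries (log axis; circles replicate 1, squares replicate 2, colored by group). RRM2B lies between 256 and 316 and BBC3 between 3.30 and 7.12, and the HIF1A-/- points of FDXR and MDM2 lie below their WT points.

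MDM4, the MDM2 partner that restrains p53 and was named after its values were seen, had a log2 fold change of -0.07 in WT hypoxia (adjusted p = 0.924).

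A further 136 genes of the pathway were sorted into 8 lists, of which 121 had a tested gene body. Hypoxia called none of them in WT or HIF1A-/- cells, nor did the difference between genotypes, and their median log2 fold changes were -0.09 and -0.11. With edgeR 8, 3, and 3 had an unadjusted p under 0.05. The smallest p-values in WT belonged to PPP1R13L, which encodes the p53 inhibitor iASPP (0.92, adjusted p = 0.181), to the decoy death receptor gene TNFRSF10D (0.68, adjusted p = 0.515), and to the antiproliferative gene BTG1 (1.11, adjusted p = 0.655). With the block 6 of the 121 were higher and 4 lower, in the fit that called 5.51% of all genes, among them PPP1R13L (adjusted p = 0.0108), BTG1 (adjusted p = 0.0186), and TNFRSF10D (adjusted p = 0.0604). CCNG2, an unconventional cyclin gene named after its values were seen, read 1.78 without the block (adjusted p = 0.897) and 1.80 with it (adjusted p = 0.00891).

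By list, in WT hypoxia, the medians were -0.09 for 11 cell cycle and growth arrest targets, 0.03 for 19 apoptosis targets, 0.07 for 9 DNA repair targets, -0.24 for 12 metabolic and redox targets, 0.01 for 21 feedback and signaling targets, -0.12 for 26 p53 family members and regulators, -0.01 for 3 noncoding RNA genes, and -0.20 for 20 genes that p21 lowers through DREAM, a repressor complex of cell cycle genes. Of the DREAM genes 18 of 20 lay below 0 in WT and 17 of 20 in HIF1A-/- cells, and 0 were called in either. The share of all genes below 0 is not given here, and genes read in the same libraries do not give independent signs. In HIF1A-/- cells the smallest p-values were those of KITLG (-0.44), PHLDA3 (-0.55), and CKS2 (-0.48), each with an adjusted p of 1. For the difference between genotypes they were those of TNFRSF10D (0.87), PPP1R13L (0.72), and IKBIP (0.56), again with an adjusted p of 1.

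The genotype comparison called 2 of the 121 in normoxia (1.78% of all gene bodies), 5 in hypoxia (4.26%), and 7 in the average (10.0%), 5 higher and 2 lower in HIF1A-/- cells, so that the pathway was called no more often than all genes. PLK2, a stress-responsive polo-like kinase gene, rose most, from 24.8 ± 4.91 CPM in WT to 86.6 ± 17.3 CPM in HIF1A-/- normoxia (SD, n = 2) and from 19.2 ± 3.18 to 70.2 ± 16.6 CPM in hypoxia, an average of 3.58-fold (log2 1.84, standard error 0.175, adjusted p = 0.00126). The antiapoptotic gene BCL2L1 was 2.05-fold higher (adjusted p = 0.0254), the receptor tyrosine kinase gene EPHA2 1.89-fold (adjusted p = 0.019), PLK3 1.53-fold (adjusted p = 0.016), and SERTAD1 1.47-fold (adjusted p = 0.0496).

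TNFRSF10D was 1.43-fold lower on average (adjusted p = 0.0567), with 109 ± 21.3 and 103 ± 16.5 CPM in WT and HIF1A-/- normoxia and 174 ± 16.6 and 90.4 ± 2.11 CPM in hypoxia. With the replicate block 33 of the 121 were higher and 18 lower, a share near the 36.0% of all genes. Among the DREAM genes 18 of 20 lay above 0, with a median of 0.21 against 0.00 for all genes, 0 were called without the block and 9 with it, all higher. The share of all genes above 0 is not given here, and these signs are not independent either.

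The members did not move as 1 unit across the libraries. Over the 36 pairs of members, Pearson's r of log2 CPM across the 8 libraries, which share depth and replicate, had a median of 0.53 and ran from -0.81 to 0.93, with 31 pairs above 0. The gene bodies whose pattern was most like the mean of the members were RALGPS1 (r = 0.991), LOC101927189 (0.978), and MAPT (0.978), and those most like CDKN1A were DCDC1 (0.975), MGAM2 (0.968), and LINC00202-1 (0.964), all over 8 libraries. These genes were picked for the highest r among all tested gene bodies outside the members, so the values show no shared regulation. No other counted region overlapped a member's region.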

How the data were processed

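PRO-seq was run on 8 HCT116 libraries, 2 biological replicates in each of 4 groups. Per the labels and the study's methods, the authors merged 2 sequencing runs per library (bcl2fastq 2.20.0.422), checked quality (FastQC 0.11.5), trimmed, aligned without splicing (HISAT2 2.1.0, GRCh37/hg19), filtered by mapping quality (SAMtools 1.5), and counted with featureCounts (Subread 1.6.2) over the most active TSS and the shortest gene body of each gene. The authors deposited raw read counts per gene, without normalization.

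Genes with a CPM above 0.5 in at least 2 libraries were tested with edgeR 4.0.16 (R 4.3.3; TMM, quasi-likelihood F-test, 1 model over all 8 libraries), and p-values were adjusted over all genes tested by Benjamini-Hochberg at an FDR of 10%. CPM and RPKM are TMM-scaled. Pausing indices were tested with edgeR as a region by group term. Alternatives were DESeq2 1.42.0, library totals, other filters, a replicate block, gene body scaling of TSS counts, and leaving out each library. Leaving out both HIF1A-/- replicate 1 libraries was added after seeing the data. Scripts were tested on simulated data.

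The methods used DESeq2, which is an alternative here. Same-numbered libraries deviated together (r of deviations 0.484 to 0.79 in gene bodies and 0.216 to 0.519 at TSS regions, over 6 pairs of groups), so the replicate numbers were treated as pairs. The labels and the methods name no pairing, and it was inferred from these same data. Replicates correlated at r = 0.966 to 0.989. No library was a copy of another.

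Members and lists were chosen with earlier results of these data known. The text names every member, HIF1A, the listed genes called in a gene body comparison (at most 8 by p), else the 3 with the smallest p, and the 3 nearest patterns. Results for some items that this rule names are not reported here.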

Additional observations from a re-analysis of the deposited data

How the results depend on the processing

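Counts of members called moved mostly with the replicate block. With edgeR and the block 1 member was called in WT hypoxia, 2 in HIF1A-/- against WT in hypoxia, and 3 in the average in gene bodies, 2 and 4 in the last 2 comparisons at TSS regions, and 2 for the pausing index, where fits without it called 0, 0, 0, 0, 1, and 0. DESeq2 with the block called 1, 2, and 3 in these gene body comparisons, 1 in HIF1A-/- against WT in normoxia (FDXR), 1 for the difference in hypoxia response (GDF15), and 1 and 2 at TSS regions. DESeq2 without it called 1 in the gene body average. Without a filter on low counts 1 was called at TSS regions in hypoxia, 2 in the TSS average, and 1 for the pausing index, and with gene body scaling 3 in the TSS average. Leaving out each library also moved the counts for HIF1A-/- against WT, in gene bodies in hypoxia and in the average, and at TSS regions in normoxia and in the average. Such fits leave 1 library in a group, and the share of all genes called in these comparisons is not given. Their counts of members called are therefore not given here. Leaving out both HIF1A-/- replicate 1 libraries left 0 in the TSS average. The cause was not tested. No value called without the block reversed, but BTG2 at the TSS, called higher in the average with the block (0.23), read -0.17 with gene body scaling, and GDF15 at the TSS in normoxia, called at -0.98 without HIF1A-/- normoxia replicate 2, had another sign under 2 alternatives. Of the 134 member comparisons not called, 16 were called under some alternative and 83 had another sign under some alternative. The block changed calls of GDF15, FDXR, BTG2, MDM2, and BBC3, and of no other member. Library totals in place of TMM left the order of the members' levels as it was in all 4 groups.

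Over all genes, the block raised the calls in gene bodies from 72 to 919 in WT hypoxia, 0 to 6 in HIF1A-/- hypoxia, 9 to 64 for their difference, and 297 to 1722, 711 to 4706, and 1676 to 6006 for the genotype in normoxia, in hypoxia, and on average. At TSS regions it raised them from 7 to 153, 0 to 1, 1 to 7, 100 to 652, 168 to 2196, and 972 to 3398, and for the pausing index from 28 to 79 in WT hypoxia and 378 to 2052 for the genotype. DESeq2 gave 175, 8, 68, 630, and 1311 gene body calls in the first 5 comparisons, and with the block 1028, 162, 122, 1569, 3867, and 5065. At TSS regions DESeq2 gave 15 in WT hypoxia, 3 for the difference, and 312 for the genotype in hypoxia, and with the block 64, 1, 6, 295, 1083, and 1992. The counts of DESeq2 without the block in the genotype average are not given here. It called FDXR there in gene bodies and MDM2 at TSS regions, so these 2 calls stand without the share of all genes. Without a filter there were 17 gene body calls for the difference, 63, 2, 8, 406, 1063, and 2039 TSS calls, and 78 and 1146 for the pausing index. A CPM above 1 in all libraries gave 4, 26, and 100 TSS calls in WT hypoxia and for the genotype in normoxia and hypoxia. Gene body scaling gave 0 TSS calls for the difference, and 151, 330, and 4213 for the genotype. Without both HIF1A-/- replicate 1 libraries there were 0, 166, 303, and 987 gene body calls and 0, 58, 77, and 250 TSS calls for the difference and the genotype, and 34 for the pausing index. Leaving out each library gave 0 to 89 gene body calls in WT hypoxia.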
